A study of Mus musculus with 11 samples.

Results

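Tubulins are the building blocks of microtubules and the protein target of paclitaxel (PTX), an anticancer drug with a painful neuropathy as its side effect. The tubulin genes described here were 10 genes taken by name from an RNA-Seq table of 36670 genes in mouse dorsal root ganglia (DRGs), where the cell bodies of sensory neurons lie. They are the α-tubulin genes *Tuba1a*, *Tuba1b*, *Tuba1c* and *Tuba4a* and the β-tubulin genes *Tubb2a*, *Tubb2b*, *Tubb3*, *Tubb4a*, *Tubb5* and *Tubb6*. All 10 were in the table, and all 10 were among the 15087 genes with a mean level of at least 0.5 FPKM, a level scaled to transcript length and sequencing depth, that were tested.

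The 11 libraries came from 4 groups. WT control (*n* = 3) and WT PTX (*n* = 3) were wild-type mice without PTX and 4 weeks after it. KO control (*n* = 3) and KO PTX (*n* = 2) were *Gpr37l1* KO mice, without PTX and 4 weeks after it. *Gpr37l1* encodes an orphan receptor of satellite glial cells (SGCs), the glia that wrap sensory neurons, and the KO strain carries the deletion in every cell. The study obtained this strain under a mixed-strain name and states a C57BL/6 background for the *Gpr37l1* and littermate mice it kept. Whether the WT libraries came from littermates is not stated. The labels give no age, no DRG level, no PTX schedule for these libraries and no statement on pooling. The study's methods describe intraperitoneal PTX by 1 or by several injections, without saying which served here. Replicate 3 was labelled female and the others male in every group, so sex and replicate 3 cannot be told apart. The samples are named as separate DRG samples, and where they are not separate mice the p-values measure technical spread only.

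A microtubule is a hollow polymer of α- and β-tubulin dimers. PTX binds β-tubulin inside the polymer and stabilizes it. Sensory axons are long, packed with microtubules and supplied by the motors that run on them, and sensory neuropathy is the known dose-limiting harm of PTX. Cells also adjust tubulin mRNA to the amount of free dimer. When free tubulin is in excess, TTC5 recognizes the first residues of a nascent tubulin chain and recruits SCAPER and the CCR4-NOT deadenylase, which remove the mRNA under translation. The tubulin genes therefore carry the signal for their own mRNA decay in their first codons.

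These first codons are shown for 2 α and 3 β genes, with the 4 codons of the autoregulation signal in capitals and the next bases in lower case. Each run holds the first 30 coding bases of the longest principal GENCODE M21 transcript, read 5′ to 3′ on the coding strand in GRCm38. In the α genes the first 3 bases lie in 1 exon and the other bases in the next, so the span of positions includes an intron. *Tuba1a* lies on the minus strand at chr15:98951665-98953453, *Tuba4a* on the minus strand at chr1:75217408-75219195, *Tubb2a* on the minus strand at chr13:34077900-34077929, *Tubb3* on the plus strand at chr8:123411606-123411635 and *Tubb4a* on the minus strand at chr17:57087484-57087513.
Tuba1a: ATGCGTGAGTGCatctccatccatgttggc
Tuba4a: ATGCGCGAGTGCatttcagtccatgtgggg
Tubb2a: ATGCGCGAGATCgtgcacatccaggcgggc
Tubb3: ATGAGGGAGATCgtgcacatccaggccggc
Tubb4a: ATGCGGGAAATCgtgcacctgcaagccggt
The 4 α genes ended the signal with the codon TGC, and the 5 β genes read here, all but *Tubb6*, ended it with ATC. *Tuba1b* and *Tuba1c* had the same first 4 codons as *Tuba1a*.

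The other end of the coding sequence is where isotypes differ most and where many enzymes modify tubulin. The last 30 coding bases before the stop codon are shown for 1 α and 2 β genes, with the last codon in capitals. They lie at chr1:75215625-75215654 (*Tuba4a*, minus strand), chr13:34074471-34074500 (*Tubb2a*, minus strand) and chr8:123421650-123421679 (*Tubb3*, plus strand).
Tuba4a end: tcctatgaggacgaggatgagggagaaGAG
Tubb2a end: ttcgaggaggaggagggtgaagatgagGCT
Tubb3 end: gacgaggaatcggaagcccaggggcccAAG
*Tuba1c* ended in TAT, a codon of the terminal tyrosine that vasohibins remove and the enzyme TTL restores. *Tuba4a* ended in GAG instead.

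Several members are near-copies of each other, which bears on their counts. The coding sequences of *Tuba1a* and *Tuba1b* were 98.3% identical, those of *Tuba1b* and *Tuba1c* 98.4%, and those of *Tubb2a* and *Tubb2b* 96.5%. Between α and β genes, identity was 53.8% to 57.6%. Of all stretches of 100 bases in the *Tuba1a* transcript, 38.4% also occurred unchanged in another tubulin transcript. For *Tuba1b* this share was 52.3%, for *Tuba1c* 53.4%, for *Tubb2a* 36.9% and for *Tubb2b* 27.7%. With all genes counted, among them the predicted genes *Gm17383*, *Gm49450* and *Gm14150*, it was 65.1% for *Tuba1a* and 69.5% for *Tuba1b* and did not differ for the other 3. *Tuba4a*, *Tubb3*, *Tubb4a*, *Tubb5* and *Tubb6* shared none with any gene. The pseudogene *Tubb2a-ps2*, counted here as a tubulin, shared stretches with *Tubb2a* and *Tubb2b*. The split of reads among *Tuba1a*, *Tuba1b*, *Tuba1c* and the predicted genes is therefore uncertain, as is that among *Tubb2a*, *Tubb2b* and *Tubb2a-ps2*. For stretches of this length in the transcripts read, the other 5 levels do not depend on such a split. *Tuba1a* and *Tuba1b* also overlap the annotated gene *Gm49450*, and *Tubb3* overlaps *Gm20388*, each on the same strand.

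The libraries held 52735648 to 80348732 estimated counts. The members took 1.10% to 1.43% of them, and each member other than *Tubb6* had at least 15832 counts in every library. Both KO PTX libraries, WT control 1 and WT PTX 3 held 52735648 to 56747335 counts, and the others at least 68821582. Every KO control held more than either KO PTX library, so depth and PTX cannot be told apart in KO mice. *Gpr37l1* was listed at 27.6 to 35.7 FPKM in WT controls, 14.6 to 31.7 in WT PTX mice and 0.21 to 1.15 in the 5 KO libraries, as the genotype labels say. Defining markers of sensory neurons (10 genes, such as *Prph* and *Isl1*) and of SGCs (5 genes, such as *Fabp7*) were present in every library. These are whole ganglia, so fewer cells of a type and less RNA per cell cannot be told apart in any level below.

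Most tubulin mRNA in DRGs came from a few genes. *Tuba1a*, an α-tubulin of postmitotic neurons, stood at 2347, 2354 and 1841 FPKM in the 3 WT controls and ranked 14 among all genes there. *Tubb3*, the neuron-specific class III β-tubulin, stood at 1436, 1556 and 1144 FPKM and ranked 22. *Tuba1b*, a widely expressed α-tubulin, stood at 979.7, 985.7 and 838 FPKM. These were the 3 highest members in every one of the 11 libraries, in that order.

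*Tubb2a*, a β-tubulin abundant in neurons, stood at 578, 578 and 419 FPKM in WT controls. *Tubb5*, the most widely expressed β-tubulin, stood at 426, 399.9 and 337 FPKM. *Tubb4a*, a β-tubulin of neurons and of myelinating glia in the central nervous system, and *Tubb2b*, best known from developing neurons, could not be ordered in WT controls. *Tubb4a* stood at 285, 297 and 278 FPKM and *Tubb2b* at 309, 312 and 201 FPKM, and *Tubb4a* was the higher in 1 of the 3. Their log2 ratio was 0.09 ± 0.32 (SD, *n* = 3), which is less than its spread. Over all libraries, *Tubb4a* was the higher in 9 of 11.

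The minor α genes were *Tuba1c*, at 148, 144 and 118 FPKM, and *Tuba4a*, at 90.1, 83.8 and 80.6 FPKM. *Tubb6*, a β-tubulin found mainly outside neurons, was the lowest by far at 10.2, 14.2 and 5.55 FPKM and ranked 4547. It was also the only member with few counts, at 575 to 2791 per library. Apart from *Tubb4a* and *Tubb2b*, each member exceeded the next in the order in all 11 libraries.

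**Figure D1:**
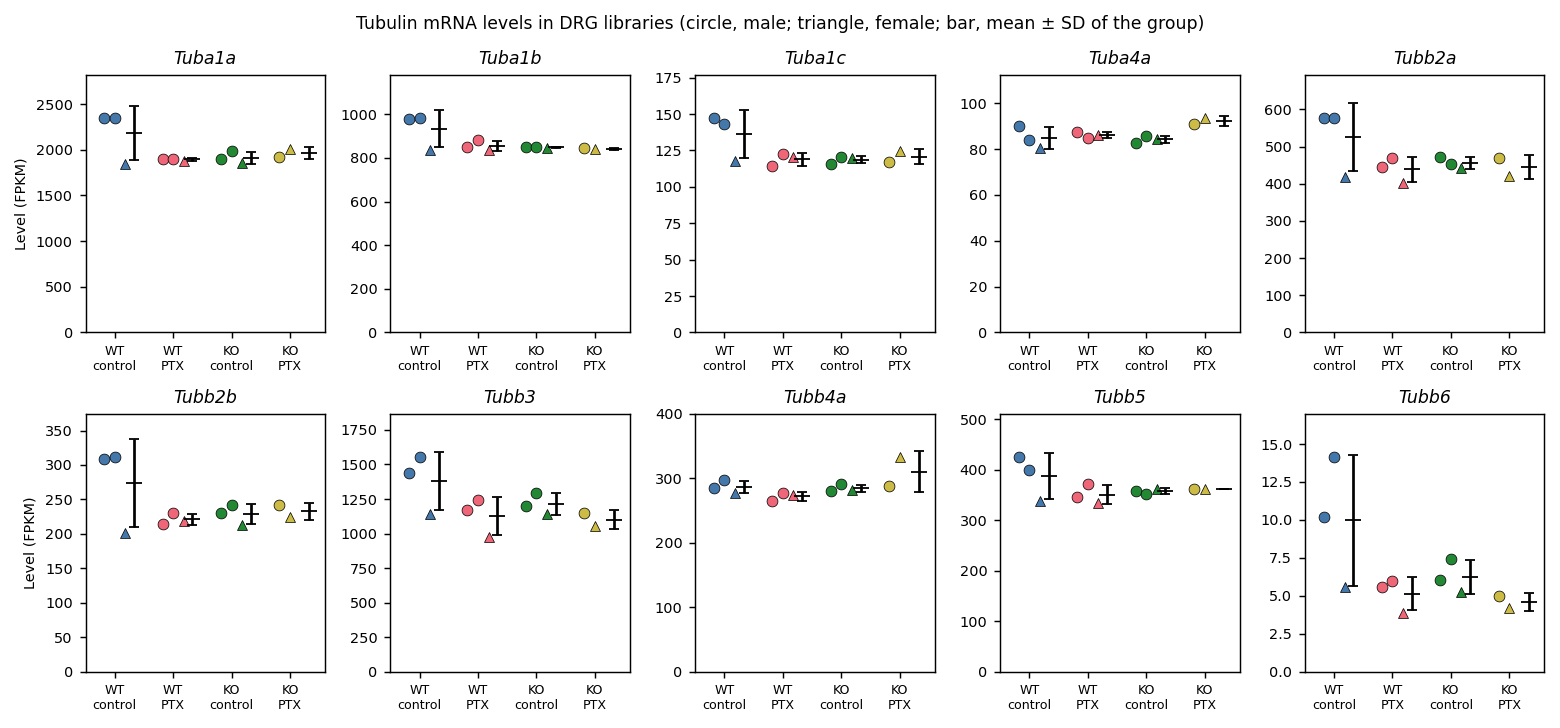
Level of each tubulin gene in FPKM (y axis, from 0) by group (x axis), with 1 symbol per library, circles for male and triangles for female, and bars for the group mean ± SD. In 8 of the 10 panels the 2 circles of the WT controls lie above every other symbol, and in the *Tuba4a* and *Tubb4a* panels they do not.

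The make-up of the α pool was nearly constant. *Tuba1a* made up 63.6% to 66.0% of summed α-member FPKM over the 11 libraries, *Tuba1b* 27.3% to 29.5%, *Tuba1c* 3.87% to 4.14% and *Tuba4a* 2.35% to 3.06%. In WT controls the share of *Tuba1a* was 65.3% ± 1.1 (SD, *n* = 3), and after PTX it was 64.1% ± 0.42 (SD, *n* = 3). The division among *Tuba1a*, *Tuba1b* and *Tuba1c* rests on the authors' division of shared reads.

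In the β pool, *Tubb3* made up 44.0% to 49.3%, *Tubb2a* 17.1% to 19.0%, *Tubb5* 12.7% to 15.1%, *Tubb4a* 9.36% to 13.9%, *Tubb2b* 8.42% to 10.2% and *Tubb6* 0.174% to 0.449%. The share of *Tubb3* was 48.1% ± 1.1 (SD, *n* = 3) in WT controls, 46.6% ± 2.1 (SD, *n* = 3) in WT PTX, 47.6% ± 1.3 (SD, *n* = 3) in KO controls and 44.8% ± 1.2 (SD, *n* = 2) in KO PTX. It was 44.1% and 44.0% in WT PTX 3 and KO PTX 3, both female, and at least 45.7% in the other 9. The share of *Tubb4a* was highest in KO PTX 3, at 13.9%. *Tubb4b*, a widely expressed β-tubulin outside the 10 members, stood at 376 to 477 FPKM, so that with all tubulin genes of the table counted *Tubb3* held 41.9% of the β pool in WT controls.

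**Figure D2:**
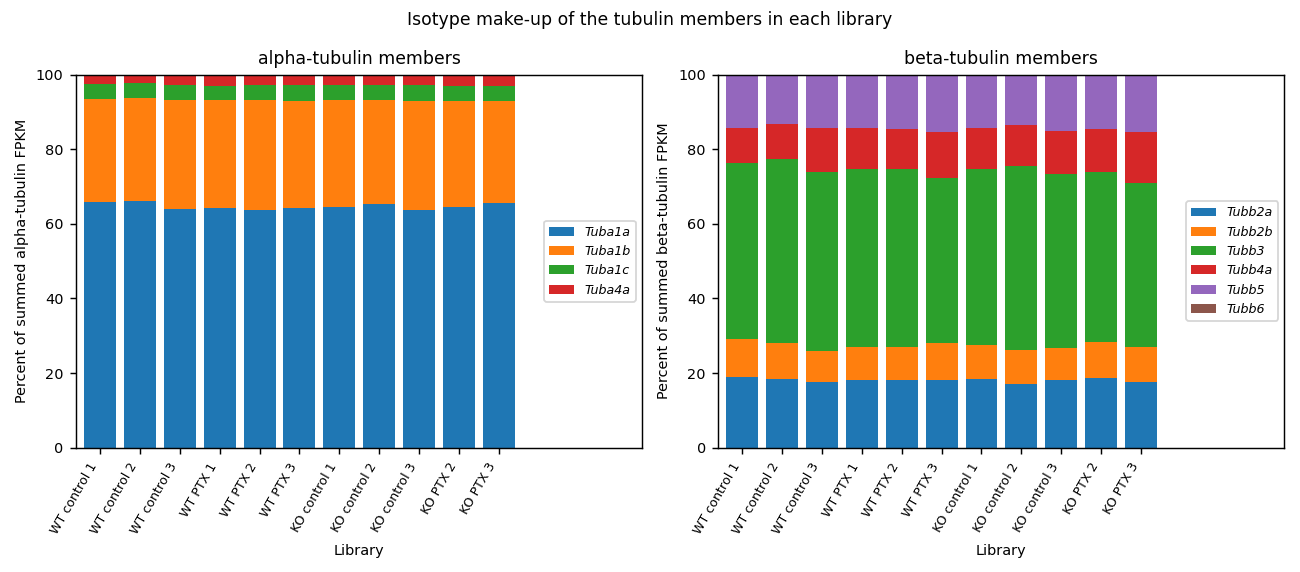
Share of each member in the summed FPKM of the α members (left) and β members (right), in percent (y axis), for each of the 11 libraries (x axis). *Tuba1a* stays between 63.6% and 66.0% and *Tubb3* between 44.0% and 49.3%.

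For 9 of the 10 members, all but *Tubb4a*, the SD was largest in the WT controls. *Tuba1a*, *Tuba1b*, *Tuba1c*, *Tubb2a*, *Tubb2b*, *Tubb3*, *Tubb5* and *Tubb6* were all higher in WT controls 1 and 2, both labelled male, than in each of the other 9 libraries. This held for 8 of 10 members and for 6.77% of the 15087 tested genes. WT control 3, labelled female, stood within or below the range of the other 8 libraries for all members. Summed over members, the level was 6609 and 6724 FPKM in WT controls 1 and 2, 5262 in WT control 3, and 5132 to 5679 in the other 8 libraries.

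The sensory neuron markers were mixed. Their summed level was 3851 and 3808 FPKM in WT controls 1 and 2 against 3531 to 3709 in the other 9 libraries. Only *Prph* was above the other 9 in both, while 3 of the 10 (*Snap25*, *Elavl4* and *Pou4f1*) were below. Of all tested genes, 6.77% were above the other 9 in both and 9.05% were below. The SGC markers summed to 1421 and 1257 against 988 to 1245, and 8 macrophage markers to 78.8 and 77.2 against 43.0 to 67.7. Gene by gene, 1 of the 5 SGC markers (*Fabp7*) and 3 of the 8 macrophage markers (*C1qa*, *C1qb* and *Csf1r*) were above the other 9 libraries in both, and 0 of either list were below. Their part in the tubulin levels was not tested.

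**Figure D3:**
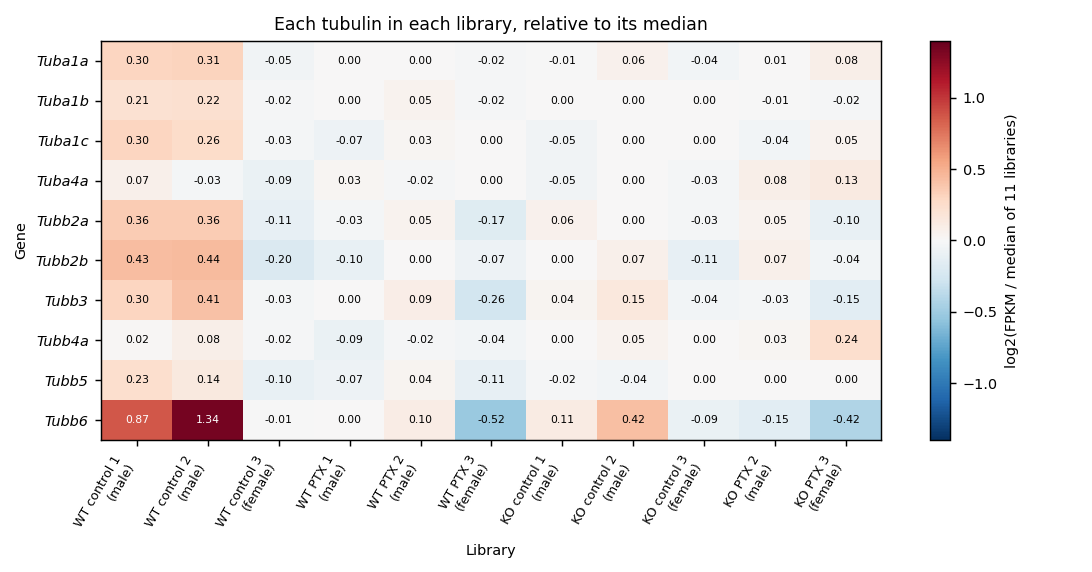
Level of each tubulin gene (rows) in each library (columns) as log2 of its FPKM over its median of the 11 libraries, with red above and blue below the median. *Tubb6* in WT control 2 is the highest cell at 1.34, and the 2 columns of male WT controls are at 0.14 or more for 8 of the 10 genes.

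How tubulin mRNA differed 4 weeks after PTX in WT mice was the first comparison. No member passed the test. *Tubb6* showed the largest difference, with 10.2, 14.2 and 5.55 FPKM in WT controls against 5.58, 5.98 and 3.88 after PTX. The groups overlapped, since WT control 3 lay below WT PTX 1 and 2. Its log2 fold change was -0.91 ± 0.19 (SE), with an unadjusted p of 0.00068 and an adjusted p of 0.203 (quasi-likelihood test of edgeR, adjusted over all tested genes).

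*Tubb3* stood at 1436, 1556 and 1144 FPKM in WT controls and at 1169, 1241 and 975 after PTX. Here too WT control 3 was lower than WT PTX 1 and 2. The log2 fold change was -0.29 ± 0.079 (SE), with a 95% interval of -0.47 to -0.11 and an adjusted p of 0.238 in edgeR. This interval corresponds to a change of -27.6% to -7.62% and is not adjusted for the number of genes.

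*Tubb2a* and *Tubb2b* had log2 fold changes of -0.26 ± 0.084 and -0.29 ± 0.12 (SE), with adjusted p of 0.286 and 0.348 in edgeR. *Tuba1a* stood at 1899, 1902 and 1880 FPKM after PTX, which lay between WT control 3 and the other WT controls, for a log2 fold change of -0.20 ± 0.091 (SE). *Tuba1c* differed by -0.20, *Tubb5* by -0.15, *Tuba1b* by -0.13 and *Tubb4a* by -0.08 on the same scale. *Tuba4a* stood at 90.1, 83.8 and 80.6 FPKM in WT controls and 87.4, 84.7 and 86.0 in WT PTX. Its log2 fold change was 0.02 with an interval of -0.13 to 0.16.

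Thus 0 of 10 members were called, against 0.00663% of all tested genes (1 gene). At an unadjusted p under 0.05, 5 of 10 members were lower (*Tuba1a*, *Tubb2a*, *Tubb2b*, *Tubb3* and *Tubb6*) and 0 higher, against 6.87% of tested genes lower and 6.59% higher. The median log2 fold change of the members was -0.20, and that of all tested genes was -0.0058. In no member did the 2 groups have separate ranges, which 14.2% of tested genes did.

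The outcome of this comparison turned on single libraries and on the tool. DESeq2 called *Tubb6* (adjusted p = 0.00083) and *Tubb3* (adjusted p = 0.0253), where it called 2.05% of tested genes. Without WT control 3, edgeR called *Tubb6* (log2 fold change -1.14, adjusted p = 0.0424). Without WT controls 1 and 2, an alternative added after the data were seen, the log2 fold changes were -0.39 for *Tubb6*, -0.14 for *Tubb3* and -0.0067 for *Tubb2a*. The other 7 members then lay between 0.028 (*Tubb4a*) and 0.12 (*Tuba4a*). That fit has 1 WT control and assumes that it varies like the other groups.

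Within males, 2 against 2 libraries, all 10 members were lower after PTX on the ratio of mean FPKM, from -1.08 (*Tubb6*) to -0.015 (*Tuba4a*) on the log2 scale. Within females, 1 against 1 library, 6 were lower and 4 higher. *Tubb6* was -0.52 and *Tubb3* -0.23 there, while *Tuba1a* was 0.03. Only a value, with no test, can be given for 1 library against 1.

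In KO mice, the second comparison, no member passed the test. *Tubb6* stood at 6.03, 7.45 and 5.24 FPKM in KO controls and 5.02 and 4.18 after PTX, and the groups did not overlap. Its log2 fold change was -0.33 ± 0.22 (SE), with an adjusted p of 0.999 in edgeR. It was -0.10 without KO PTX 2 and -0.55 without KO PTX 3. *Tuba4a* was at 82.7, 85.8 and 84.3 FPKM in KO controls and 90.8 and 93.8 in KO PTX. This was also without overlap, for a log2 fold change of 0.13 ± 0.073 (SE). *Tuba1b* was at 849, 851 and 847 FPKM in KO controls and 844 and 839 in KO PTX. This separation amounted to a log2 fold change of -0.00057.

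The remaining members overlapped. *Tubb3* stood at 1199, 1296 and 1139 FPKM in KO controls and 1148 and 1055 after PTX, with a log2 fold change of -0.10 and an interval of -0.29 to 0.10. *Tubb4a* stood at 281, 291 and 282 FPKM in KO controls and at 288 and 333 in KO PTX, with a log2 fold change of 0.12 ± 0.081 (SE). The 333 FPKM came from KO PTX 3 alone. Summed markers of spinal cord cell types were also highest in that library. The 8 oligodendrocyte markers summed to 17.3 FPKM against 2.26 to 8.76 in the other 10 libraries, and 7 of the 8, such as *Mog* at 1.30 and *Mobp* at 6.11, were highest there. The 5 spinal neuron markers summed to 5.31 against 0.08 to 1.43, with 4 of the 5 highest there and *Chat* listed at 0. They summed to 1.43 in KO PTX 2, 1.27 in WT control 1 and 1.23 in WT PTX 3, against 0.08 to 0.17 in the rest, KO controls included. These libraries and KO PTX 3 were also the ones with the fewest counts, so depth and these markers cannot be told apart. The part of these markers in the *Tubb4a* level was not tested. Without KO PTX 3 the log2 fold change of *Tubb4a* was -0.0013.

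In all, 0 of 10 members were called in KO mice, against 0.00663% of tested genes, and 0 of 10 had an unadjusted p under 0.05, against 4.32%. DESeq2 called 0 members too, with 0.192% of tested genes called. The groups did not overlap for 1 member that was higher and 2 that were lower after PTX, against 11.3% and 10.4% of tested genes. The median log2 fold change of the members was 0.04 and that of all tested genes was -0.0089. With 2 KO PTX libraries, the interval was -0.17 to 0.17 for *Tuba1b* and -0.23 to 0.36 for *Tubb2b*. It was widest for *Tubb6*, at -0.81 to 0.15.

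**Figure D4:**
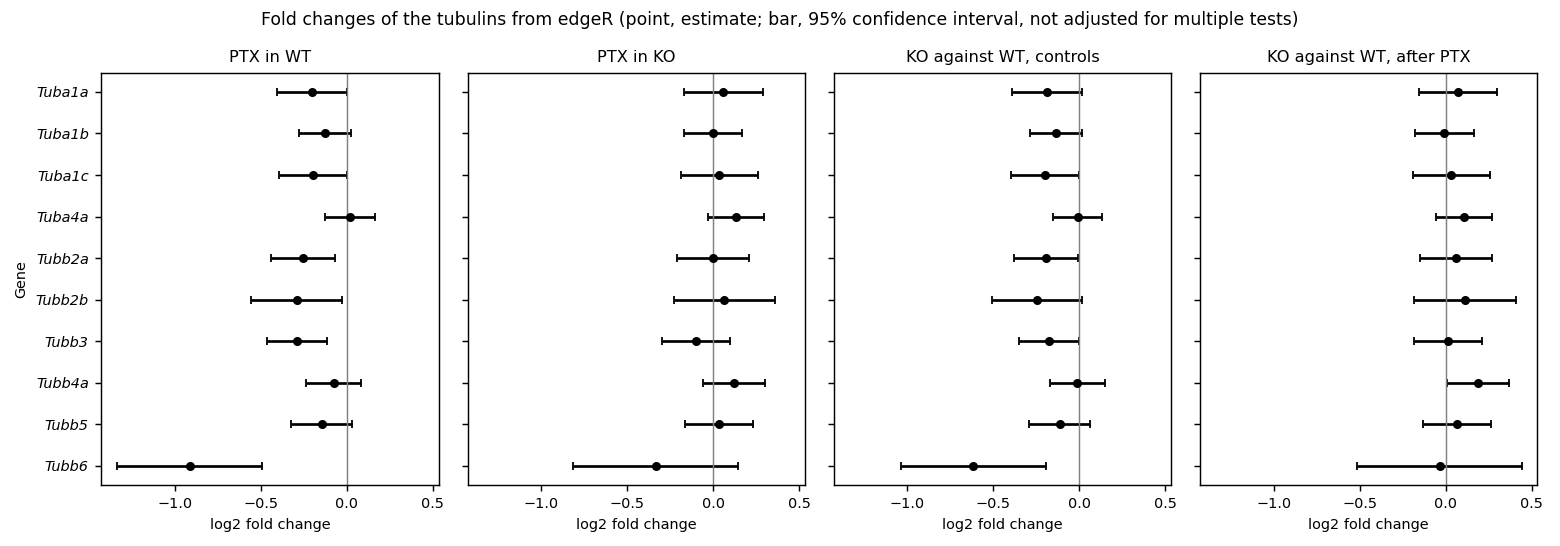
Log2 fold change (x axis) of each tubulin gene (y axis) in 4 comparisons, with points for edgeR estimates and bars for 95% confidence intervals that are not adjusted for multiple tests. *Tubb6* lies farthest from 0 after PTX in WT mice at -0.91, and the intervals in KO mice all include 0.

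Whether the PTX difference itself varied with genotype was tested as an interaction. The KO-minus-WT difference in log2 fold change was positive for all 10 members, from 0.12 (*Tuba4a*) to 0.58 (*Tubb6*), while it was negative for 51.8% of tested genes. None passed the test, at adjusted p of 0.724 or more in edgeR, and 0 of 10 had an unadjusted p under 0.05, against 0.00663% and 6.30% of tested genes. For *Tubb6* the interval was -0.05 to 1.21, and for *Tubb3* it was -0.07 to 0.46. The same WT controls enter every one of these differences. Without WT controls 1 and 2 the difference was 0.02 for *Tubb6*, 0.03 for *Tubb3* and 0.09 for *Tubb4a*.

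KO controls were then compared with WT controls, which share their WT libraries with the PTX comparison in WT mice. *Tubb6* stood at 6.03, 7.45 and 5.24 FPKM in KO controls against 10.2, 14.2 and 5.55 in WT controls, for a log2 fold change of -0.62 ± 0.19 (SE) and an adjusted p of 0.657 in edgeR. *Tubb2b*, *Tuba1c*, *Tubb2a*, *Tuba1a* and *Tubb3* had log2 fold changes of -0.25, -0.20, -0.19, -0.19 and -0.18. *Tuba4a* and *Tubb4a* both lay at -0.01. None was called, against 0.00663% of tested genes. At an unadjusted p under 0.05, 4 of 10 members were lower in KO (*Tuba1c*, *Tubb2a*, *Tubb3* and *Tubb6*), against 3.58% of tested genes, and the ranges of the 2 groups were separate for 0 of 10, against 9.28%.

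These values rested on WT controls 1 and 2 as well. Without both, 8 members had positive log2 fold changes, from 0.02 (*Tuba1b*) to 0.14 (*Tubb2b*), while *Tubb3* was at -0.03 and *Tubb6* at -0.10. DESeq2 called 0 of the 10 members here, with 0.278% of tested genes called.

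After PTX, KO and WT mice were compared by a contrast of KO PTX with WT PTX. The WT controls are not part of this contrast, though they share the fit that gives its sex term and spread. Both KO PTX libraries and WT PTX 3 held fewer counts than WT PTX 1 and 2, so depth was not balanced in this contrast. *Tubb4a* stood at 288 and 333 FPKM in KO PTX and 265, 278 and 275 in WT PTX, with no overlap. Its log2 fold change was 0.19 ± 0.081 (SE), with an unadjusted p of 0.043 and an adjusted p of 0.993 in edgeR. It was 0.0625 without KO PTX 3, the library with the highest spinal cord markers, and 0.33 without KO PTX 2. In a fit of KO PTX and WT PTX alone it was 0.166. *Tuba4a*, at 90.8 and 93.8 against 87.4, 84.7 and 86.0 FPKM, and *Tuba1a*, at 1918 and 2012 against 1899, 1902 and 1880, were also higher without overlap, with log2 fold changes of 0.11 and 0.07. These 3 of 10 members without overlap compare with 10.7% of tested genes that were higher in this way. *Tubb6* (-0.03) and *Tubb3* (0.02) lay near 0, with intervals of -0.51 to 0.44 and -0.18 to 0.21. None was called, against 0.0133% of tested genes, and 1 of 10 was higher at an unadjusted p under 0.05, against 1.81%. DESeq2 called 0 as well, with 0.0663% of tested genes called.

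With both genotypes averaged, *Tubb6* had a log2 fold change of -0.62 ± 0.14 (SE) after PTX and *Tubb3* one of -0.19 ± 0.060 (SE), with adjusted p of 0.385 and 0.443 in edgeR. Both had an unadjusted p under 0.05, at 0.0015 and 0.0086, as did 5.53% of tested genes on the lower side. No other member did, and 0 of 10 were called, against 0.0133% of tested genes. DESeq2 called *Tubb6* (adjusted p = 0.0053), where it called 0.829% of tested genes. *Tubb6*, *Tubb3* and *Tuba1b* were lower after PTX in both sexes of both genotypes on mean FPKM. For *Tuba1b* the log2 ratio was as small as -0.0029, in WT females. The share of all tested genes that were lower in this way is not given here. For *Tubb6* these log2 ratios were -1.08, -0.52, -0.43 and -0.33 in WT males, WT females, KO males and KO females, and for *Tubb3* they were -0.31, -0.23, -0.12 and -0.11. Single libraries stand behind 5 of these 8 group means.

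The genes around tubulin were taken from fixed lists. Of 10 other tubulin genes, 9 were in the table and 5 were tested. *Tuba3b* was not analysed here. *Tubb4b* had a log2 fold change of -0.07 ± 0.082 (SE) after PTX in WT mice and 0.04 ± 0.092 (SE) in KO mice. *Tubg1* and *Tubg2*, the γ-tubulins that seed microtubules, stood at 20.3 to 24.2 and 17.5 to 24.9 FPKM. *Tuba8* stood at 0.86 to 2.59 FPKM and *Tubd1*, a centriolar tubulin, at 1.58 to 2.53. *Tube1*, *Tuba3a*, *Tubal3* and *Tubb1*, the β-tubulin of platelets, had means under the 0.5 FPKM limit. None of the 5 tested genes had an unadjusted p under 0.05 in any comparison.

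The autoregulation genes were present at low and similar levels. *Ttc5*, which reads the nascent chain, stood at 4.14 to 6.08 FPKM, *Scaper* at 6.5 to 8.89 and *Cnot11*, a CCR4-NOT subunit, at 6.89 to 8.75. After PTX in WT mice the log2 fold changes of the 3 genes ran from -0.14 to 0.15, and in KO mice from -0.11 to 0.14. None had an unadjusted p under 0.05 in any comparison.

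Tubulin folds with the help of prefoldin, the chaperonin CCT and the cofactors *Tbca* to *Tbce*, and all 21 genes of this list were tested. After PTX in WT mice 1 was higher and 3 lower at an unadjusted p under 0.05, against 6.59% and 6.87% of tested genes. None was called, against 0.00663% of tested genes. *Tbce*, a cofactor that acts on α-tubulin, had a log2 fold change of 0.25 ± 0.085 (SE), at 8.63, 8.24 and 7.75 FPKM in WT controls and 9.80, 8.97 and 10.5 after PTX. *Tbcb*, another cofactor for α-tubulin, was at 60.2, 53.3 and 49.3 FPKM in WT controls and 49.1, 47.6 and 45.7 in WT PTX. Its log2 fold change was -0.20 ± 0.071 (SE), with an adjusted p of 0.317 in edgeR. In KO against WT controls *Tbcb* was at -0.19 ± 0.071 (SE), and its interaction was 0.25 ± 0.11 (SE). For both genes every WT PTX library lay on 1 side of every WT control, as for 14.2% of tested genes. The median of the list was -0.07.

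Of 26 genes for enzymes that modify tubulin, 19 were tested and 0 were called in any comparison, against 0.00663% to 0.0133% of tested genes. After PTX in WT mice 2 were higher and 3 lower at an unadjusted p under 0.05, against 6.59% and 6.87% of tested genes. *Vash2* and *Vash1*, the vasohibins that remove the last tyrosine of α-tubulin, had log2 fold changes of -0.62 ± 0.26 and -0.55 ± 0.22 (SE) after PTX in WT mice, with adjusted p of 0.358 and 0.348 in edgeR. Over both genotypes *Vash1* had one of -0.48 ± 0.17 (SE), with an adjusted p of 0.454 in edgeR. *Vash2* stood at 1.14, 2.01 and 0.86 FPKM in WT controls and 0.87, 0.93 and 0.78 after PTX, so that WT control 2 alone was far from the rest. *Ttll7*, which adds glutamate chains to β-tubulin, was at 78.1, 91.8 and 105 FPKM in WT controls and 116, 103 and 116 in WT PTX. Its log2 fold change was 0.29 ± 0.098 (SE). *Ttll5*, a polyglutamylase of α-tubulin, was the only gene of the list with an unadjusted p under 0.05 in KO mice, at 0.19 ± 0.083 (SE). Its difference in WT mice was similar, at 0.18 ± 0.074 (SE). Over both genotypes it was 0.19 ± 0.056 (SE), with an unadjusted p of 0.0073 and an adjusted p of 0.441 in edgeR. *Agbl3*, which trims such chains, had an interaction of -0.59 ± 0.26 (SE) and an adjusted p of 0.724 in edgeR. The median of the list was 0.02 in WT mice.

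All 11 nucleation genes, which build and anchor the γ-tubulin ring, were tested. None was called in any comparison, against 0.00663% to 0.0133% of tested genes. After PTX in WT mice 2 were higher and 0 lower at an unadjusted p under 0.05, against 6.59% and 6.87% of tested genes. *Tubgcp4*, a subunit of that ring, stood at 2.67, 3.62 and 4.47 FPKM in WT controls and 4.72, 4.36 and 5.57 after PTX. The ranges overlapped through WT control 3, and the log2 fold change was 0.45 ± 0.16 (SE) with an adjusted p of 0.303 in edgeR. In KO against WT controls it was 0.38 ± 0.16 (SE), and the interaction was -0.64 ± 0.23 (SE). Their adjusted p were 0.657 and 0.724 in edgeR, and the same WT controls enter both. The list's median was 0.06 in WT mice and -0.08 in KO mice.

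**Figure D5:**
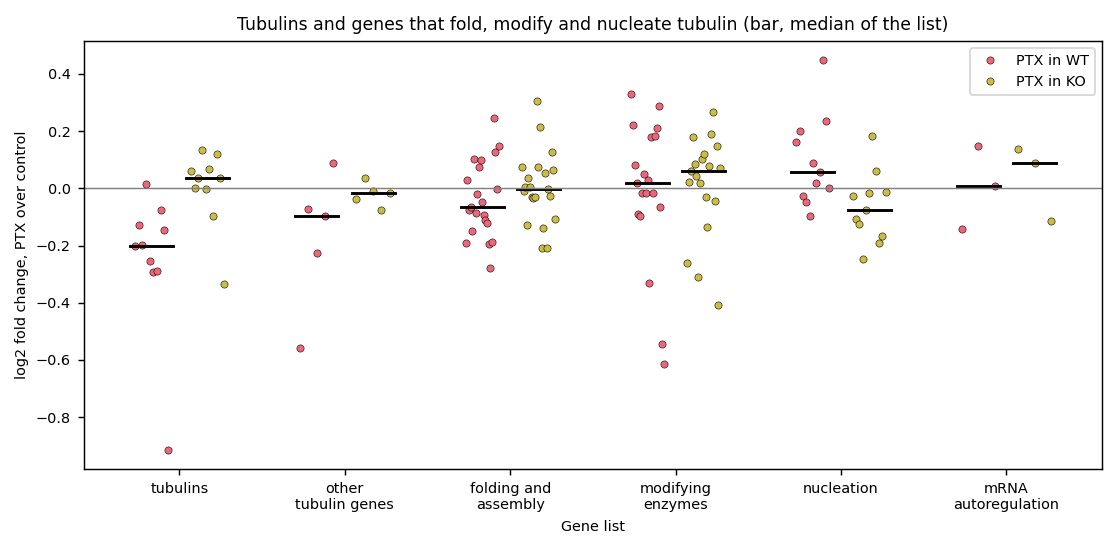
Log2 fold change after PTX (y axis) of the tested genes in 6 lists (x axis), with 1 point per gene, red for WT and yellow for KO mice, and a bar at the median of the list. The tubulins have a median of -0.20 in WT and 0.04 in KO mice, and the other lists lie between -0.10 and 0.09.

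Which genes varied most like each tubulin was described by the correlation of log2(FPKM + 1) over the 11 libraries, all 4 groups included. Each nearest gene is the top of all tested genes other than tubulins, so its high r follows in part from that choice. *Tubb6* was nearest to *Phlda1*, an inducible regulator of cell survival (r = 0.991), and to *Itga7*, an integrin subunit (r = 0.980). *Tubb2a* was nearest to the complement gene *C3* (r = 0.983) and to the cytoplasmic actin gene *Actg1* (r = 0.971). *Tubb3* was nearest to *Arhgef40* and *Fam129b* (both r = 0.971). Over the 9 libraries other than WT controls 1 and 2, these values were 0.960 and 0.916, 0.939 and 0.924, and 0.908 and 0.919. *C3* stood at only 0.67 to 3.1 FPKM.

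*Tuba1a* was nearest to *Nfkbiz* (r = 0.959) and *Gusb* (r = 0.950), with 0.531 and 0.442 over the other 9 libraries. *Nfkbiz* stood at only 0.59 to 1.01 FPKM. *Tuba1c* was nearest to *Acot7* and *Slc25a45* (r = 0.942 and 0.931), with 0.31 and 0.50 over the 9. *Tuba1b* and *Tubb2b* had *Camk1* as nearest gene (r = 0.961 and 0.958), with 0.728 and 0.761 over the 9. *Tubb5* had *H2-M11* (r = 0.962, then 0.815), a gene at 0.57 to 2.56 FPKM. Second nearest were *Tkt* to *Tuba1b* (r = 0.958, then 0.743), *Eif3b* to *Tubb2b* (r = 0.958, then 0.807) and *Tkt* to *Tubb5* (r = 0.954, then 0.765). The values of *Tuba4a* and *Tubb4a* were no lower over the 9. *Tuba4a* was nearest to *Lsm2* (r = 0.939, then 0.944) and *Fgf18* (r = 0.908, then 0.966). *Tubb4a* was nearest to *Nrbp2* and the neuronal surface gene *Thy1* (r = 0.948 and 0.931, then 0.972 and 0.967). Among the members themselves, the median of the 45 pairwise r was 0.829 over 11 libraries and 0.332 over the 9. The values ran from -0.192 to 0.979 over 11 libraries and from -0.454 to 0.966 over the 9. *Tubb3* with *Tubb6* was the highest pair in both.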

How the data were processed

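The 11 DRG samples were profiled by poly(A) stranded RNA-Seq. The submitters' processing notes list cutadapt, FastQC, HISAT2, StringTie and mm10, without roles or versions. The authors deposited 1 table with FPKM values, scaled by them for gene length and library size, and estimated counts without normalization. How reads shared by near-identical genes were divided is not given in the sources used here. Groups, sex and replicate numbers came from the sample labels. Titles and descriptions number the KO PTX libraries differently (1 and 2, or 2 and 3), and the descriptions were used.

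Counts were rounded and tested with edgeR 4.0.16 (TMM scaling, quasi-likelihood test) in R 4.3.3, on the 15087 genes whose mean over libraries reached 0.5 FPKM, with all 11 libraries in 1 fit and labelled sex as covariate. The threshold was an adjusted p under 0.05 (Benjamini-Hochberg over all tested genes). Unadjusted values are given as p. Levels are FPKM. DESeq2 1.42.0, limma 3.58.1 on log2(FPKM + 1) and log2(FPKM + 0.1), other scalings, filters, covariates, a replicate block and fits without each library were alternatives. The deviations of same-numbered WT and KO controls from their group means correlated at 0.113, 0.116 and 0.230 (3 of 3 pairs over 0.1). The number was therefore treated as a possible pairing there, in the replicate block only. The main fit, which gives the values above, has no replicate term. Replicate 3 also shares its sex, and the replicate block changed no call in that comparison. The code was tested on simulated data. Sequences came from GENCODE M21 (GRCm38), in which all 10 members had the table's coordinates.

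The members and gene lists were chosen with earlier results of these data known. All members, other tubulins and autoregulation genes are named, and of the other lists the genes with the largest positive and negative fold change at an unadjusted p under 0.05 in each comparison, with the 2 nearest genes of each member by correlation. *Vash1* in WT mice was named after its value was seen. The sequence of *Tubb6* and some coding ends are not reported here.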

Additional observations from a re-analysis of the deposited data

How the results depend on the processing

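The count of called members stayed at 0 in all 6 comparisons under every scaling, filter, covariate and limma alternative and under the replicate block, and in the 4 comparisons of 2 groups also in fits of only those groups. The exceptions were DESeq2, with 2 members after PTX in WT mice and 1 over both genotypes, and edgeR without WT control 3, with 1 member after PTX in WT mice (0 to 1 over all fits without 1 library). Outside the controls, same-numbered samples did not all deviate together. Over all groups, the correlation was over 0.1 in 7 of 15 same-number pairs (mean 0.08) and 4 of 30 others (mean -0.04). Deviations from a group mean cancel within the group, so these means are tied and the other pairs are no separate baseline. Under the replicate block *Tubb3* in KO against WT after PTX was -0.0051, and no call changed. With all tubulin genes in the sum, *Tubb3* was 41.87% of the β pool in WT controls.

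Signs near 0 turned with the setting, and the cause was not tested. In KO against WT after PTX, *Tubb3* was -0.0338 without the sex covariate and -0.0666 to 0.115 without 1 library (-0.0011 without WT PTX 1), and *Tubb6* was -0.247 to 0.198 (0.0069 without WT PTX 3). In controls without a filter on low values, *Tuba4a* was 0.0059 and *Tubb4a* 0.0036. Without 1 library *Tuba4a* was -0.0586 to 0.043 (0.0113 without KO control 1), and *Tubb4a* was -0.0605 to 0.0209 (0.0196 without WT control 2). After PTX in KO mice, *Tubb3* was -0.179 to 0.0028 without 1 library (highest without KO PTX 2) and *Tubb4a* -0.0013 to 0.266 (lowest without KO PTX 3). In WT mice *Tuba4a* was -0.0323 (without WT control 3) to 0.0704, with -0.0198 without WT PTX 3, and over both genotypes *Tubb4a* was -0.0423 (without KO PTX 3) to 0.0913, with -0.0069 without WT control 3.

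Without both male WT controls, added after the data were seen, PTX in WT gave 0.0504 for *Tuba1a*, 0.033 for *Tuba1b*, 0.0606 for *Tuba1c*, 0.0951 for *Tubb2b*, 0.028 for *Tubb4a* and 0.0567 for *Tubb5*. KO against WT in controls then gave 0.0654 for *Tuba1a*, 0.0245 for *Tuba1b*, 0.0591 for *Tuba1c*, 0.0923 for *Tuba4a*, 0.0532 for *Tubb2a*, 0.144 for *Tubb2b*, 0.0931 for *Tubb4a* and 0.0865 for *Tubb5*.

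Counts over all genes moved too. DESeq2 called 309 genes after PTX in WT mice, 29 in KO mice, 42 and 10 for KO against WT in controls and after PTX, 12 for the interaction and 125 over both genotypes, where edgeR called 1 or 2. Fits of only the groups compared gave 5, 4 and 5 after PTX in WT, in KO and between genotypes after PTX. Without 1 library the counts were 0 to 30 after PTX in WT mice, 1 to 7 in KO mice, 1 to 4 and 2 to 7 for KO against WT in controls and after PTX, 1 to 6 for the interaction and 1 to 18 over both genotypes. Groups of 2 or 3 libraries limit every interval given.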
